A study of Mus musculus with 10 samples.

Results

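Mouse embryonic stem cells (ESCs) in which Gys1 was disrupted (GKO) were compared with primed ESCs (PJ1), to describe which genes keep the knockout apart from the primed state and which lie at the primed level. The members were taken by sample name, 2 GKO and 2 primed libraries out of the 10 bulk RNA libraries in the series. Of 21853 protein-coding genes listed, 12060 reached 1 TPM in at least 2 of the 10 libraries and were tested. GKO derives from the ESC line J1, carries a CRISPR indel in Gys1 and was grown on gelatin in naïve medium. This medium holds LIF and the inhibitors PD0325901 (of MEK) and CHIR99021 (of GSK3). PJ1 is wild type and was grown on Matrigel in medium with KnockOut Serum Replacement, bFgf and Activin. The methods give each medium in different versions, the naïve one with or without serum. They do not say which version was used for these libraries. Genotype, medium and state therefore change together between the groups, and their parts cannot be told apart. Y-linked RNA also differed. The TPM of 7 listed Y-linked genes summed to 52.1 and 48.3 in GKO and to 0 in both primed and both naïve libraries. What this contributes to other genes was not tested. Unedited J1 in the naïve medium, also with 2 libraries, is given as a point of reference. The filter and the fit also used the other lines of the series, AKO, with Prkaa1 disrupted, and DKO, with Gys1 and Prkaa1 disrupted. Both derive from J1, and their spread enters every SE, interval and p-value here. GKO clones were picked as single colonies, and the study does not say which of them gave the libraries. Nothing in the records says that the libraries of a line are separate cultures, so every p-value here measures only the spread between these samples.

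Naïve ESCs resemble the epiblast of the embryo before implantation and are held there by LIF and Wnt signals with ERK signalling blocked. Primed ESCs resemble the later epiblast, need FGF and Activin, and stand closer to the germ layers. Gys1 encodes the glycogen synthase found in most tissues, the enzyme that lengthens glycogen chains, and glycogen is a store of glucose that cells can return to glycolysis.

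TPM is an abundance corrected for transcript length, and the number of reads behind it was not known. The listed TPM summed to 517712 and 531306 in GKO 1 and 2 and to 512120 and 500162 in primed 1 and 2. At 1 TPM or more there were 10832 and 10824 genes in GKO and 11113 and 11092 in primed ESCs. Differences are GKO minus primed on the log2(TPM + 1) scale. A gene is called at an adjusted p under 0.05 in limma after Benjamini-Hochberg adjustment over the 12060 genes. For any gene alone, 2 libraries against 2 give no two-sided exact p smaller than 0.333, and calls depend on a spread that limma pools over genes and lines.

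The 2 primed libraries stood apart from each other. Their replicates differed by a median of 0.127 on the log2 scale, against 0.0651 in GKO, and 100 of the tested genes were at least 1 apart between primed 1 and primed 2, against 7 between the GKO libraries. Among the genes farthest apart were targets of Nodal signalling and early patterning genes. Lefty1, a secreted Nodal inhibitor, was at 477 and 33.95 TPM in primed ESCs and 6.896 and 6.88 TPM in GKO. Its relative Lefty2 was at 79.2 and 15.4 TPM in primed ESCs and 97.1 and 94.6 TPM in GKO. With them stood Fgf8, an FGF ligand at 20.6 and 1.36 TPM in primed ESCs, the neural factor Zic1 (11.9 and 1.62 TPM) and the mesoderm factor T. In these 5 genes primed 1 was above primed 2. Of the 14 listed mesendoderm markers, 12 were higher in primed 1, and their TPM summed to 62.7 in primed 1, 11.7 in primed 2, and 48.7 and 46.0 in GKO. T, the most abundant of them in GKO, was at 19.1 and 17.5 TPM in GKO and 8.97 and 0.786 TPM in primed ESCs. Gsc, Sox17 and Cer1, which define later mesendoderm, stayed under 0.5 TPM in both GKO libraries and in primed 2, and were at 2.446, 3.038 and 9.8 TPM in primed 1. What set the 2 primed libraries apart was not tested. Values that rest on 1 library are as follows. Without primed 1, Lefty1 moved from -4.03 to -2.15, Zic1 from -2.23 to -1.08 and Fgf8 from -2.27 to -0.67. Without primed 1, T moved from 2.19 to 3.43 and Lefty2 from 1.42 to 2.56. Without primed 2, T moved to 0.95, Lefty2 to 0.27, Zic1 to -3.38 and Fgf8 to -3.86. Without GKO 1 or GKO 2, Lefty2 (1.40 and 1.44) and Fgf8 (-2.20 and -2.33) were no longer called.

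GKO stood far from primed ESCs across the transcriptome. Of the 12060 genes, 9296 were called (77.1%), 4748 higher in GKO (39.4%) and 4548 lower (37.7%), and the counts of every gene list below stand against these shares. At least 1 apart on the log2 scale were 1349 genes higher in GKO (11.2%) and 1732 lower (14.4%). This balance turned where a mean of at least 5 TPM was required, with 866 apart and higher in GKO and 668 lower. Called genes were then 3632 higher and 2655 lower. The libraries of GKO and primed ESCs did not overlap in 10447 genes (86.6%), so a lack of overlap was the usual case. The median difference over all genes tested was 0.02 and the median absolute difference 0.51. Among the genes apart and higher in GKO, the naïve mean lay within 1 of the GKO mean for 1214 (90.0%), and within 0.5 of the primed mean for 91. Among those apart and lower, these counts were 1650 (95.3%) and 47. Both sets of numbers describe 3 lines that share libraries. In bulk RNA, fewer cells of a kind and less RNA per cell cannot be told apart, and this holds for every difference reported here.

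The targeted gene itself came out lower in GKO. Gys1, on chromosome 7 from base 45084175 to 45106058 of GRCm39 (plus strand), was at 9.695 and 9.98 TPM in GKO and 13.6 and 14.3 TPM in primed ESCs, with 11.5 and 10.8 TPM in naïve ESCs. Both GKO libraries lay below both primed libraries, and below both naïve ones. The difference was -0.46 (SE 0.06, adjusted p = 8.12e-05 by limma, Benjamini-Hochberg adjusted). The guide that made the knockout matches the start of exon 9 at chr7:45094056-45094075, shown here because it is the edited site, with the adjacent PAM in capitals: ggacacagccaatacagtcaAGG. An indel there need not lower the mRNA, so this level does not measure how much enzyme was left. The isoform of liver, Gys2, did not pass the filter and stayed at or under 0.01 TPM in GKO and primed ESCs.

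Genes of glycogen metabolism lay mostly on the lower side in GKO. Of 19 tested among 26 listed, 5 were higher and 11 lower, with a median of -0.33 against 0.02 for all genes tested, and 6 had a 95% interval within 0.5 of primed, against 33.6% (4051) of all genes. The gene listed as Pgm1, a phosphoglucomutase by name, was at 4.54 and 4.703 TPM in GKO and 43.8 and 56.4 TPM in primed ESCs (-3.17, SE 0.12). Which phosphoglucomutase this symbol stands for in the deposited annotation was not checked. Stbd1, which tethers glycogen to membranes, was at 0.075 and 0.054 and at 3.72 and 6.34 TPM. Gbe1, the branching enzyme, was at 1.98 and 1.94 against 7.73 and 6.51 TPM and the phosphorylase Pygb at 5.55 and 5.11 against 14.2 and 18.7 TPM. Gyg (glycogenin, the primer of glycogen chains) was at 8.35 and 8.595 TPM in GKO, between 5.599 and 4.58 TPM in naïve and 10.7 and 11.02 TPM in primed ESCs. On the other side, Phka1, a regulatory subunit of phosphorylase kinase, was at 4.79 and 4.46 TPM in GKO and 1.83 and 2.05 TPM in primed ESCs. Nhlrc1 (malin), an E3 ligase tied to glycogen quality, was at 0.519 and 0.628 TPM in GKO and listed at 0 in both primed libraries.

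The naïve factors kept GKO apart with the highest median of any list that had tested genes. All 17 listed were tested and called higher in GKO, 16 of them by at least 1, with a median of 4.75, and this direction held under each scaling tried. Dppa5a, an RNA-binding protein of early embryos and germ cells, was at 1183 and 1311 TPM in GKO and 0.091 and 0 TPM in primed ESCs, the largest difference of all genes that met the naming rule. Zfp42 (REX1), a zinc-finger marker of the naïve state, was at 459 and 469 TPM in GKO and 0.024 and 0.196 TPM in primed ESCs. Esrrb, an orphan nuclear receptor of the naïve network, was at 234 and 232 TPM in GKO and 0.236 and 0.214 TPM in primed ESCs. In these 3 genes each GKO library was above 200 TPM and each primed library under 1. The differences were 10.22 (SE 0.07, adjusted p = 1.65e-12), 8.72 (SE 0.07, adjusted p = 2.09e-12) and 7.58 (SE 0.04, adjusted p = 1.04e-12) by limma, Benjamini-Hochberg adjusted. Tfcp2l1, a factor downstream of LIF and Wnt signals, was at 132 and 129.7 TPM against 0.277 and 0.211 TPM. The T-box factor Tbx3 was at 103 and 97.4 TPM against 0.331 and 0.113 TPM, and Klf4 at 152 and 147 TPM against 2.78 and 1.59 TPM. Prdm14, which restrains FGF signals and DNA methylation, was at 18.6 and 16.6 TPM against 0.016 and 0.014 TPM, and Dppa3 (stella) at 2.44 and 2.53 TPM with both primed libraries listed at 0. Klf5 had the smallest difference of the list, with 62.4 and 63.4 TPM in GKO and 32.97 and 40.5 TPM in primed ESCs (0.77). Nanog kept a sizeable level in primed ESCs, 104 and 114 TPM, against 449.8 and 494 TPM in GKO.

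General pluripotency factors fell into separate groups. Of 11 tested, 9 were higher in GKO and 1 lower, 3 were within 0.5 of primed, and the median was 0.78. Pou5f1 (OCT4) was at 705 and 764 TPM in GKO and 517 and 431 TPM in primed ESCs (0.64), and its partner Sox2 at 261 and 261 TPM and 138 and 167 TPM (0.77). Sall4, a zinc-finger partner of both, lay close to primed, at 124 and 119.9 TPM in GKO and 108 and 109 TPM in primed ESCs. These 3 genes, which mark both states, were at 100 TPM or more in every library of both groups. The Nodal co-receptor Tdgf1 was at 451 and 443 TPM in GKO and 3.05 and 0.543 TPM in primed ESCs, and primed 1 was again the higher of the primed libraries. The paired chromatin factors Dppa2 and Dppa4, which bind together at developmental genes, were at 67.3 and 67.5 TPM and 43.1 and 42.1 TPM in GKO. Each primed library had both under 0.1 TPM.

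**Figure D1:**
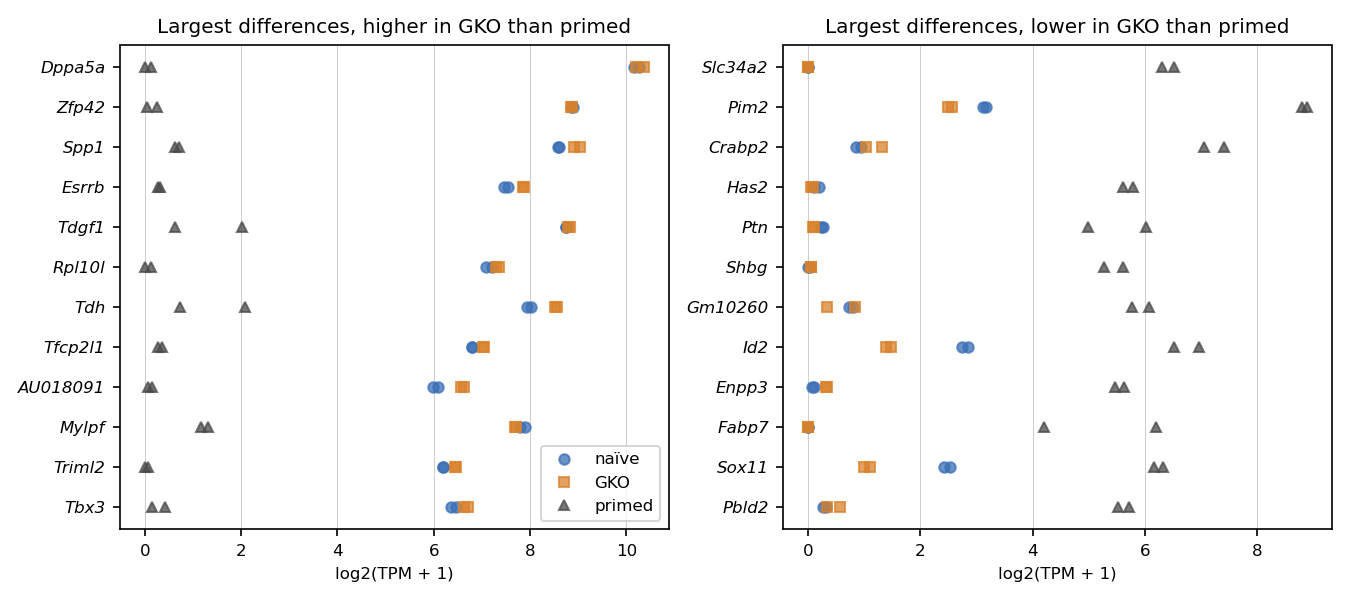
log2(TPM + 1) of the 24 genes with the largest differences between GKO and primed ESCs among called genes with a mean of at least 5 TPM in the higher line and no overlap, 12 higher in GKO (left) and 12 lower (right). Each point is a library (circles naïve, squares GKO, triangles primed; 2 per line), and the naïve mean lies within 1 of the GKO mean in 12 of the 12 genes on the left and 10 of the 12 on the right.

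Formative and primed factors showed the opposite picture. Of 17 tested among 18 listed, 15 were lower in GKO, 14 of them by at least 1, and none was higher, with a median of -2.33. The member not tested was Fgf5, an FGF ligand of the primed state, which reached 1 TPM in primed 1 alone. It was at 10.7 and 0.447 TPM in primed ESCs and 0.036 and 0.017 TPM in GKO. Pim2, a serine/threonine kinase that promotes survival, was at 4.88 and 4.64 TPM in GKO and 444 and 476 TPM in primed ESCs. Sox11, a SOX factor of neural and epiblast cells, was at 1.15 and 0.993 TPM and 79.1 and 71.2 TPM. The groups were far apart in both, and naïve ESCs, at 8.002 and 7.62 TPM of Pim2 and 4.37 and 4.75 TPM of Sox11, stood above GKO, so that GKO was the lowest of the 3 lines. Against primed ESCs the differences were -6.32 (SE 0.11, adjusted p = 2.13e-10) and -5.20 (SE 0.08, adjusted p = 1.05e-10) by limma, Benjamini-Hochberg adjusted. Car14, a membrane carbonic anhydrase, was under 0.1 TPM in both GKO libraries and at 20.8 and 31.9 TPM in primed ESCs. Otx2, a homeobox factor that drives the exit from the naïve state, was at 5.28 and 6.09 TPM in GKO and 53.03 and 55.9 TPM in primed ESCs. Zic2, a zinc-finger partner of enhancers in the primed state, lay between the states, at 33.7 and 33.3 TPM in GKO with 14.4 and 13.7 TPM in naïve and 86.9 and 110.2 TPM in primed ESCs. Zic5 stood in the same order, at 6.22 and 5.61, 9.99 and 9.57 and 29.2 and 39.3 TPM in naïve, GKO and primed ESCs. Tcf15, a bHLH factor of cells about to leave the naïve state, was the listed gene whose interval lay within 0.5 of primed, at 22.7 and 27.7 TPM in GKO and 23.4 and 21.7 TPM in primed ESCs, where the groups overlap.

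Lineage markers lay on both sides. Of 9 neuroectoderm genes tested among 12 listed, 8 were lower in GKO and 1 higher, with a median of -2.22, and under quantile normalization 7 were lower and none higher. Sox1, the earliest neural SOX factor, was at 0.839 and 0.908 TPM in GKO and 27.2 and 29.6 TPM in primed ESCs (-3.97, SE 0.08). Nes, an intermediate filament of neural progenitors, was at 5.95 and 6.18 TPM against 48.6 and 39.2 TPM, and the neuronal tubulin Tubb3, the member on the higher side, at 96.2 and 95.3 TPM against 85.9 and 78.5 TPM. Of the 14 listed mesendoderm markers, 7 did not pass the filter. Among these were Gsc, Foxa2, Sox17, Cer1 and Lhx1, which reached 1 TPM in primed 1 alone, and the counts of tested genes leave them out. The summed TPM of mesendoderm markers, given above, lay between the primed libraries in GKO, and of 7 tested 4 were higher and 2 lower. Those counts were 5 and 1 without primed 1, 3 and 1 without either GKO library, and 3 and 2 without primed 2, and the median of 0.52 became 0.88 without primed 1 and 0.165 without primed 2. Evx1, a homeobox gene of the primitive streak, was at 1.22 and 0.934 TPM in GKO and under 0.1 TPM in both primed libraries, and Wnt3, the ligand that starts the streak, at 0.131 and 0.151 TPM in GKO and 4.62 and 1.57 TPM in primed ESCs. Of 7 primitive endoderm genes tested among 12 listed, 4 were higher and 3 lower. They ranged from Lama1, a laminin chain at 12.2 and 11.99 TPM in GKO and 0.552 and 0.301 TPM in primed ESCs, to the forkhead gene Foxq1, at 0.034 and 0.016 TPM against 15.96 and 12.2 TPM. Of 8 trophectoderm genes tested among 12 listed, 6 were higher and 1 lower, with a median of 1.75. Tead4, the TEA-domain factor that starts this lineage, was at 12.8 and 12.8 TPM in GKO, 12.9 and 12.9 TPM in naïve and 0.294 and 0.316 TPM in primed ESCs. The trophoblast factor Cdx2 was at 6.62 and 7.27 TPM in GKO, above 2.57 and 2.66 TPM in naïve and 0.502 and 0.032 TPM in primed ESCs. Tfap2c and Gata2 stood in the same order, at 23.2 and 24.3 TPM and 4.67 and 4.39 TPM in GKO, 6.68 and 6.29 TPM and 0.516 and 0.663 TPM in naïve, and 1.78 and 5.97 TPM and 0.196 and 0.315 TPM in primed ESCs. Tfap2a was highest in naïve ESCs, at 9.89 and 10.97 TPM, with 4.77 and 4.64 TPM in GKO and 1.49 and 0.968 TPM in primed ESCs. Krt18, a keratin of simple epithelia, was lower in GKO, at 4.202 and 4.14 TPM against 12.4 and 8.79 TPM. Without primed 2 the lower count of this list was 2 in place of 1. None of the 10 genes of the 2-cell-like list that matched (of 12) passed the filter.

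Genes that methylate DNA and read or erase the mark went in both directions. All 9 were called, against 77.1% of all genes tested, 5 higher and 4 lower, with a median of 0.17, or 4 and 4 with a median of 0.048 under quantile normalization. Dnmt3b, a de novo methyltransferase, was at 28.3 and 27.6 TPM in GKO and 222 and 254 TPM in primed ESCs, and Dnmt3a at 17.8 and 17.8 TPM against 71.5 and 63.3 TPM. Their cofactor Dnmt3l was at 59.2 and 53.2 TPM in GKO and 0.209 and 0.115 TPM in primed ESCs, and 208 and 211 TPM in naïve ESCs. GKO thus had the lower de novo enzymes and the higher cofactor relative to primed ESCs, while its Dnmt3l was below both naïve libraries. Tet2, which oxidises 5-methylcytosine, was at 27.5 and 28.2 TPM against 1.73 and 1.71 TPM, and Tet1 at 113 and 126 TPM against 21.5 and 16.96 TPM, whereas Tet3 was lower in GKO (1.88 and 1.99 against 5.901 and 5.73 TPM). The maintenance enzyme Dnmt1 lay within 0.5 of primed, at 62.3 and 60.8 TPM against 52.9 and 55.97 TPM. The differences were -3.04 (SE 0.06, adjusted p = 5.69e-10) for Dnmt3b and 5.62 (SE 0.07, adjusted p = 2.26e-11) for Dnmt3l, by limma, Benjamini-Hochberg adjusted.

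Germline genes, many of which are silenced by promoter methylation in the body, lay on the higher side. Of 14 tested among 18 listed, 12 were higher in GKO and none lower, with a median of 2.06. Tdrd12, a tudor protein of the piRNA pathway, was at 43.1 and 41.3 TPM in GKO and 0.025 and 0.279 TPM in primed ESCs (5.24, SE 0.09). The RNA helicase Ddx4 (VASA) was at 10.4 and 9.53 TPM in GKO, 2.68 and 2.17 TPM in naïve and 0.045 and 0.109 TPM in primed ESCs. Sycp3, a protein of the meiotic chromosome axis, was at 6.38 and 6.23, 3.04 and 3.08 and 0.039 and 0.176 TPM in the same order. In both genes GKO was the highest of the 3 lines. Dazl, Stk31, Hormad1 and Slc25a31 were listed at 0 in both primed libraries and stood at 3.28 and 3.38, 7.66 and 7.53, 2.899 and 3.08 and 0.909 and 1.001 TPM in GKO. Being at 0 in primed ESCs, these genes passed the filter only through other lines and could not come out lower. Ddx4, Sycp3, Tdrd12 and Rhox5 also passed it only through other lines. The counts and median of this list include all of them. Naïve ESCs were above GKO in Dazl (6.89 and 7.43 TPM), Hormad1 (5.096 and 4.98 TPM) and, by little, Slc25a31 (1.225 and 1.14 TPM). They were below GKO in Stk31 (4.358 and 5.084 TPM). The E-box CACGTG, a palindrome that reads the same on both strands and is bound by bHLH factors such as MAX and MGA, was looked up in the promoters after these values were seen. In the 250 bases before the start, 11 of the 17 germline genes in the RefSeq promoter table (GRCm38.p6) hold it, against 6.86% of 27025 genes in the table. Among tested genes it is held by 9 of 13 germline genes and 10.2% of all 9504 in the table. Mael, of the piRNA pathway, holds it and was at 2.41 and 1.95 TPM in GKO and 2.37 and 2.26 TPM in primed ESCs, where the groups overlap, and Sycp1, of the synaptonemal complex, holds it with a small difference (0.26) that was no longer called without GKO 2 (0.172) or primed 1 (0.166). A match describes letters in this window and no more. Windows of 30 bases from 4 called genes with 1 start in the table are shown with the motif in capitals, to let the surroundings be compared, each read along its gene's strand. Dazl, Rhox5 and Tdrd12 do not hold these letters in their windows, and Rhox5, a homeobox gene of the X chromosome, was also higher in GKO, at 12.5 and 12.5 TPM against 0.069 and 0.197 TPM, with 23.7 and 23.7 TPM in naïve ESCs.
Ddx4, chr13:112652322-112652351, minus strand: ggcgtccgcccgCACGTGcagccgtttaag
Sycp3, chr10:88459532-88459561, plus strand: acgggcatggagCACGTGctaggaggcggg
Slc25a31, chr3:40708766-40708795, plus strand: cgcaactggaaaCACGTGttatggtcacat
Taf7l, chrX:134476522-134476551, minus strand: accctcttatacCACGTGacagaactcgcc

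The LIF pathway, whose ligand is in the naïve medium and not in the primed one, was mostly higher in GKO. Of 11 tested, 9 were higher and none lower, with a median of 1.44, while the kinase Jak2 and the target Junb were not called. The receptor Lifr was at 16.2 and 15.5 TPM in GKO and 1.76 and 1.93 TPM in primed ESCs, and the transcription factor Stat3 at 33.5 and 32.3 TPM against 5.998 and 7.66 TPM. The feedback inhibitor Socs3, a direct STAT3 target, was at 49.7 and 48.4 TPM against 1.82 and 2.82 TPM, and Bcl3, which the pathway also raises, at 37.2 and 37.2 TPM against 0.152 and 0.957 TPM. The kinase Pim1 was at 47.3 and 50.1 TPM in GKO and 2.82 and 2.700 TPM in primed ESCs, the reverse of its relative Pim2.

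The FGF pathway, which the naïve medium blocks and the primed medium feeds, was mixed, with 7 of 18 tested higher, 9 lower and a median of -0.19, while 39.4% of all genes tested were higher and 37.7% lower. The median was -0.048 without GKO 1, -0.331 without GKO 2, -0.075 without primed 1 and -0.303 without primed 2, and 0.98 over the 11 genes with a mean of at least 5 TPM. The 3 receptors tested were lower in GKO. Fgfr2 was at 0.365 and 0.283 TPM in GKO and 19.1 and 23.7 TPM in primed ESCs, Fgfr3 at 0.112 and 0.092 against 3.395 and 5.55 TPM, and Fgfr1 at 35.5 and 32.00 against 79.03 and 84.9 TPM. Fgfr4, which did not pass the filter, was at 0.502 and 0.585 TPM in GKO and 0.209 and 0.331 TPM in primed ESCs. Targets and feedback inhibitors of ERK went both ways. Spry4, an inhibitor of receptor signals, was at 36.5 and 32.4 TPM in GKO and 1.49 and 3.81 TPM in primed ESCs, and the phosphatase Dusp6 at 19.02 and 15.9 against 6.79 and 4.66 TPM, both higher in GKO, while Dusp4 was lower, at 1.89 and 1.24 against 14.02 and 10.9 TPM. Spry2 was highest in GKO among the 3 lines, at 70.6 and 62.98 TPM, with 24.2 and 22.3 TPM in naïve and 10.8 and 11.9 TPM in primed ESCs. Fgf4, the ligand that ESCs make for themselves, was at 71.2 and 73.1 TPM in GKO against 5.26 and 4.34 TPM.

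Of the 15 genes matched among 16 in the Nodal and Activin list, 6 were higher and 8 lower (39.4% and 37.7% over all genes tested), with a median of -0.30. The listed symbol Cripto was not matched. The Nodal co-receptor Tdgf1, given above with the general pluripotency factors, is not in these counts. It was higher in GKO (7.49), and counting it would raise the higher count and the median. Of the 15 genes, 9 were higher in primed 1 than in primed 2. The TPM of the 15 summed to 853 and 285 in the primed libraries and to 448 and 428 in GKO. Part of this list moved with the difference between the primed libraries, whose cause was not tested. The list median was -0.214 without primed 1 and -0.272 without primed 2. The ligand Nodal itself was at 48.3 and 47.2 TPM in GKO and 29.2 and 6.02 TPM in primed ESCs, a difference of 1.74 that became 2.79 without primed 1 and 0.69 without primed 2. The inhibitor Smad7 was at 42.6 and 37.9 TPM in GKO and 2.26 and 0.896 TPM in primed ESCs, and Skil, a repressor of SMAD targets, at 6.48 and 6.79 TPM against 45.2 and 41.95 TPM. Gdf3, a ligand of the same receptors, was at 94.4 and 91.7 TPM against 18.3 and 14.7 TPM.

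In the Wnt list 5 of 13 tested were higher and 7 lower, with a median of -0.46 that became -0.252 without primed 1. Cdx1, a homeobox target of the pathway, was at 63.6 and 66.5 TPM in GKO and 0.532 and 0.216 TPM in primed ESCs (5.60, SE 0.09), and was above 29.6 and 29.02 TPM in naïve ESCs. The ligand Wnt8a went the other way, at 0.217 and 0.254 TPM against 48.4 and 33.8 TPM (-5.07, SE 0.17). Notum, which inactivates Wnt ligands, was at 13.4 and 13.9 TPM against 0.402 and 0.478 TPM, and the nuclear factor Lef1 at 1.05 and 0.963 against 10.2 and 8.24 TPM. For BMP signals 5 of 11 were higher and 4 lower, with a median of -0.14. Without primed 1 the median was -0.065, and without primed 2 it was -0.011, with 4 higher and 5 lower. With a mean of at least 5 TPM, 2 of 8 were higher and 4 lower. The ligand Bmp4 was at 31.4 and 27.7 TPM in GKO and 0.817 and 0.621 TPM in primed ESCs, while Id2, an inhibitor of bHLH factors that BMP can raise, was at 1.61 and 1.78 TPM against 91.3 and 124 TPM. Id2 was also lower in GKO than in naïve ESCs, at 5.68 and 6.19 TPM. Bmp7 was at 3.11 and 2.99 TPM in GKO and under 1 TPM in both naïve and both primed libraries.

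Adhesion genes showed the cadherin exchange known between the states, with 4 of 14 tested higher, 9 lower (8 under quantile normalization) and a median of -0.76. Cdh1 (E-cadherin), which holds epithelial cells together, was at 128 and 125 TPM in GKO and 20.3 and 22.04 TPM in primed ESCs. Cdh2 (N-cadherin) was at 1.36 and 1.61 TPM against 28.8 and 20.1 TPM. The differences were 2.53 (SE 0.05, adjusted p = 3.93e-10) and -3.34 (SE 0.14, adjusted p = 4.17e-08) by limma, Benjamini-Hochberg adjusted. Zeb2, a repressor of epithelial genes, was at 0.062 and 0.174 TPM in GKO and 10.7 and 10.1 TPM in primed ESCs. Epcam, an epithelial adhesion protein, stood at 24.7 and 25.8 TPM in GKO between 7.18 and 7.54 TPM in naïve and 50.9 and 51.3 TPM in primed ESCs. Markers of fibroblasts or feeder cells summed to 10.8 and 11.6 TPM in GKO and 28.2 and 30.9 TPM in primed ESCs. Tagln, an actin-binding protein, was the most abundant of the 12 in primed ESCs, at 17.5 and 14.9 TPM, with 0.068 and 0.11 TPM in GKO. Dcn, Lum and Mgp, also on the list, were listed at 0 in all 4 libraries, so the primed sums beyond Tagln came from other members. Of the 5 tested, 1 was higher in GKO and 3 lower, and without primed 2 the higher count was 2.

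Glycolysis genes went both ways in GKO, with 6 of 24 tested higher, 13 lower and a median of -0.32, against 39.4% and 37.7% of all genes tested. The lower count was 11 without GKO 1 and 12 without GKO 2 or primed 1. The lactate exporter Slc16a3 (MCT4) was at 14.9 and 23.8 TPM in GKO and 530.0 and 518 TPM in primed ESCs, and the glucose importer Slc2a1 (GLUT1) at 112 and 120.4 TPM against 381 and 710.2 TPM. The differences were -4.72 (SE 0.30, adjusted p = 6.93e-07) and -2.15 (SE 0.22, adjusted p = 1.75e-05) by limma, Benjamini-Hochberg adjusted. Enolase 1 (Eno1) was at 497 and 489 TPM in GKO, 782 and 755 TPM in naïve and 1184 and 1193 TPM in primed ESCs, and lactate dehydrogenase A (Ldha) at 668 and 719.8, 1018 and 1022 and 1116 and 1189 TPM. GKO was the lowest of the 3 lines in both. Forms of an enzyme differed in direction: for phosphofructokinase, Pfkp was higher in GKO (58.4 and 56.2 against 9.05 and 14.1 TPM), and Pfkl (28.8 and 37.00 against 97.9 and 109 TPM) and Pfkm (7.98 and 7.84 against 31.8 and 31.6 TPM) were lower. Hexokinase 2 (Hk2) was higher, at 112 and 118 TPM against 45.3 and 39.2 TPM. Ldhb was higher in GKO than in either other line, at 111 and 126 TPM, with 21.8 and 18.8 TPM in naïve and 39.5 and 37.01 TPM in primed ESCs. Gapdh lay within 0.5 of primed, at 3205 and 3260.3 TPM against 2998 and 2925 TPM.

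Lipid synthesis genes were mostly lower in GKO. In fatty acid synthesis 12 of 16 were lower and 3 higher, with a median of -0.94. Fatty acid synthase (Fasn) was at 132 and 131 TPM in GKO and 318 and 248 TPM in primed ESCs, the desaturase Fads1 at 32.5 and 33.6 against 98.8 and 94.3 TPM, and the elongase Elovl1 at 7.53 and 8.58 against 38.1 and 35.3 TPM. The exceptions were Acacb, Elovl7 and, by the widest margin, the stearoyl-CoA desaturase Scd1, at 59.1 and 62.2 TPM against 2.77 and 0.632 TPM (4.63, SE 0.29). In cholesterol synthesis 15 of 21 were lower and 3 higher, with a median of -0.96, and under quantile normalization 17 were lower. The early enzyme Hmgcs1 was at 133 and 134 TPM in GKO and 474 and 456 TPM in primed ESCs, and the later enzyme Msmo1 at 94.3 and 96.3 against 388 and 353 TPM. Insig1, which holds back this pathway by retaining its activator in the endoplasmic reticulum, was at 57.2 and 56.1 TPM in GKO and at 0 and 0.015 TPM in primed ESCs (5.84, SE 0.05). The sterol isomerase Ebp, at 36.1 and 35.6 TPM against 27.6 and 22.5 TPM, was also higher in GKO. Idi1 was within 0.5 of primed, at 62.2 and 61.7 TPM against 66.1 and 64.1 TPM, and above 35.8 and 38.9 TPM in naïve ESCs.

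Oxidative genes and the AMPK complex went both ways. In fatty acid oxidation 5 of 18 tested were higher and 8 lower, with a median of -0.07 (-0.152 without primed 1), and 8 were within 0.5 of primed, against 33.6% of all genes tested. Cpt1a, which admits fatty acids to mitochondria, was at 16.6 and 16.3 TPM in GKO and 16.1 and 15.8 TPM in primed ESCs, while its muscle form Cpt1b was at 0.616 and 0.664 against 6.56 and 11.96 TPM. The carnitine carrier Slc25a20 was higher in GKO, at 35.1 and 34.8 against 10.97 and 11.9 TPM. Of 17 nuclear genes of cytochrome c oxidase tested, 9 were higher and 3 lower (8 and 4 under quantile normalization), with a median of 0.20 (0.324 without GKO 1), and 5 were within 0.5 of primed. Cox7a1 was at 44.8 and 40.4 TPM in GKO against 10.5 and 9.404 TPM, and Cox7b at 274 and 280.1 against 86.2 and 88.8 TPM. Genes of the mitochondrial genome were not analysed here. Of 11 AMPK subunits and upstream kinases tested, 4 were higher and 3 lower, with a median of 0.09, and 6 were within 0.5 of primed. Of all genes tested 39.4% were higher and 37.7% lower. Without GKO 1 the higher count of this list was 2. The catalytic subunit Prkaa2 was at 3.27 and 3.29 TPM in GKO and 8.302 and 9.38 TPM in primed ESCs, and Prkaa1 at 12.2 and 11.96 against 13.4 and 13.7 TPM. The upstream kinase Camkk2 was higher, at 14.1 and 14.1 against 4.12 and 3.71 TPM. In serine, glycine and one-carbon metabolism 5 of 14 tested were higher and 8 lower, with a median of -0.29. Amt, of the glycine cleavage system, was at 61.3 and 64.7 TPM in GKO and 7.59 and 8.04 TPM in primed ESCs (2.86, SE 0.05), and Phgdh, the first enzyme of serine synthesis, at 64.5 and 64.2 against 104 and 125 TPM. The naïve network gene Tdh, which encodes the threonine dehydrogenase that feeds glycine, was at 364 and 377 TPM against 3.22 and 0.669 TPM.

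Imprinted genes, expressed from 1 parental copy, lay more often on the lower side. Of 17 tested among 20 listed, 5 were higher and 12 lower, against 39.4% and 37.7% of all genes tested, with a median of -1.76, or 4 and 12 under quantile normalization. Nnat was at 1.005 and 1.25 TPM in GKO and 53.6 and 62.7 TPM in primed ESCs, Grb10 at 1.54 and 1.45 against 29.4 and 57.1 TPM, and Dlk1 at 0.22 and 0.214 against 13.8 and 14.9 TPM. GKO was below both naïve libraries too in these genes (4.31 and 4.496, 3.204 and 3.22 and 1.41 and 1.16 TPM in naïve ESCs). The receptor Igf2r, which degrades IGF2, was at 14.8 and 14.1 TPM in GKO and 0.259 and 0.258 TPM in primed ESCs, and Igf2 itself at 1.298 and 1.09 against 5.61 and 9.02 TPM. Phlda2 stood at 2.77 and 3.48 TPM in the naïve line, 13.4 and 13.9 TPM in GKO and 82.6 and 142 TPM in primed ESCs, which puts GKO between the others. The cell cycle inhibitor Cdkn1c was highest in GKO, at 6.66 and 7.103 TPM, with 1.91 and 2.63 TPM in naïve and 0.387 and 0.518 TPM in primed ESCs.

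The other genes among the 12 largest differences in each direction belong to no list. Higher in GKO were Spp1 (osteopontin, a secreted matrix protein), at 524 and 483 TPM against 0.539 and 0.631 TPM, Mylpf, a muscle myosin light chain, at 206 and 209 against 1.47 and 1.23 TPM, and Triml2, at 87.6 and 85.6 against 0 and 0.048 TPM. AU018091 was at 97.2 and 93.2 TPM against 0.041 and 0.1 TPM, and Rpl10l, a ribosomal protein gene with near-identical relatives and so uncertain, at 156 and 164 against 0 and 0.089 TPM. Lower in GKO were the phosphate carrier Slc34a2, listed at 0 in both GKO libraries and at 91.05 and 78.2 TPM in primed ESCs, and the fatty acid binding protein Fabp7, also listed at 0 in GKO and at 73.00 and 17.3 TPM in primed ESCs. Crabp2, a retinoic acid carrier, was at 1.49 and 1.04 TPM in GKO and 169 and 133 TPM in primed ESCs. Has2, which makes hyaluronan, was at 0.029 and 0.064 against 48.1 and 54.5 TPM, and the growth factor Ptn at 0.054 and 0.077 against 64.3 and 30.9 TPM. In these 5 genes every GKO library was under 2 TPM and every primed library above 15. Shbg, Enpp3 and Pbld2 were likewise under 1 TPM in GKO and above 35 TPM in primed ESCs, as was Gm10260, a predicted ribosomal gene that is uncertain for its copies.

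Some genes set GKO apart from primed ESCs where naïve and primed ESCs lay within 0.5 of each other, 91 higher and 47 lower among the genes at least 1 apart. On the higher side stood the Y-linked Eif2s3y, a translation factor, at 41.5 and 37.97 TPM, and Ddx3y, an RNA helicase, at 8.11 and 7.83 TPM, both listed at 0 in both primed and both naïve libraries. Uty, the other tested gene of the Y-linked list, was at 2.36 and 2.35 TPM in GKO and listed at 0 in the same 4 libraries, and the 4 others listed did not pass the filter. Tex13b, an X-linked testis gene, was at 17.8 and 19.1 TPM in GKO and listed at 0 in primed ESCs. The mitochondrial creatine kinase Ckmt1 was at 16.5 and 16.6 TPM in GKO, 2.03 and 2.13 TPM in naïve and 1.28 and 1.402 TPM in primed ESCs. The histone variant gene H2afx was at 469 and 467, 174 and 165 and 154 and 125 TPM in the same order, and the stress-response gene Gadd45a at 28.7 and 22.1, 9.85 and 7.401 and 7.45 and 4.63 TPM. Lad1, an anchoring filament protein, and Stard8, a lipid-binding protein, were also among the 8 largest on this side, with differences of 2.56 and 2.37. On the lower side, Klhl7, an adaptor of a ubiquitin ligase, was at 6.47 and 6.31 TPM in GKO, 17.7 and 18.1 TPM in naïve and 22.7 and 24.3 TPM in primed ESCs. The immediate early gene Egr1 was at 8.93 and 4.24 TPM in GKO, 39.2 and 22.1 TPM in naïve and 34.4 and 18.5 TPM in primed ESCs. In Mettl26, Cntnap2, Cr1l, Gps2, Tlcd1 and Asrgl1 the differences ran from -1.79 (Mettl26) to -1.35 (Asrgl1), with both GKO libraries below the naïve and primed ones.

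Genes at the primed level in GKO were few. Of the 3355 genes at least 1 apart between primed and naïve ESCs, 74 met the rule (2.21%, or 0.614% of all genes tested): the 95% interval of GKO minus primed lay within 0.5, and GKO minus naïve was called in the primed direction. The 3 contrasts share libraries, so this is a description with no test. Of the 74, 29 were higher in primed than in naïve ESCs and 45 lower, and 24 of the 45 were under 1 TPM on average in both GKO and primed ESCs. Called as different from primed in spite of the narrow interval were 23 of the 74. With a pseudocount of 0.1 in place of 1, which spreads low values more, 61 genes met the rule, 30 of them among the 74. On the rising side Cald1 (caldesmon, which binds actin and myosin) stood at 5.12 and 5.57 TPM in the naïve line, 26.1 and 25.2 TPM in GKO and 28.7 and 28.1 TPM in primed ESCs. Cotl1, another actin-binding protein, was at 10.9 and 11.8, 34.7 and 34.8 and 37.95 and 37.8 TPM in the same order, and Zmynd11, a reader of histone methylation, at 10.8 and 10.1, 25.1 and 25.1 and 33.4 and 30.3 TPM. In these 3 genes GKO lay below the primed libraries and far above the naïve ones. Their intervals of GKO minus primed were -0.28 to -0.00, -0.24 to -0.01 and -0.47 to -0.19. Cald1 and Cotl1 were not called against primed and met the rule in all of 14 other settings. Zmynd11 was called lower than primed and met the rule in 9 of the 14. It missed the rule under quantile normalization and median-ratio scaling, among others. The lectin Lgals1 was at 22.3 and 23.2, 50.4 and 53.6 and 51.2 and 58.5 TPM in naïve, GKO and primed ESCs. Smad3, which carries Activin signals to the nucleus, was the member of a list that met the rule, at 3.56 and 3.62, 8.05 and 7.27 and 9.63 and 9.81 TPM. It met it narrowly, with an interval from -0.498, and in 5 of 14 other settings, the interval reaching -0.613 without GKO 1, -0.556 without primed 1, -0.533 without primed 2 and -0.519 without naïve 1 or naïve 2. The others of the 12 with the largest primed minus naïve difference were Nynrin, Parp11, Sri, Mageh1, Erbin, Akr1b10 and Ptpn9, with GKO minus naïve between 1.01 (Ptpn9) and 1.53 (Nynrin). Nynrin and Erbin met the rule in all 14 settings, Akr1b10 in 13, Mageh1 in 11, Ptpn9 in 8, Sri in 7 and Parp11 in 4.

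**Figure D2:**
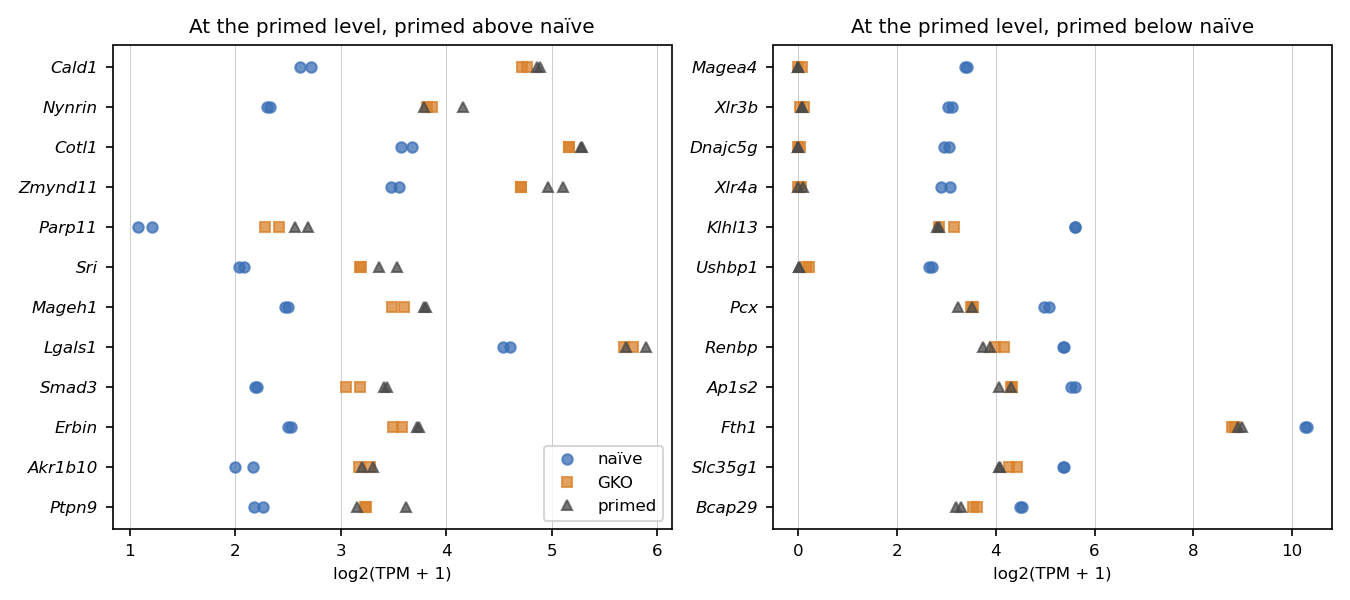
log2(TPM + 1) of 24 of the 74 genes at the primed level in GKO, the 12 with the largest primed minus naïve difference in each direction among those with a mean of at least 5 TPM in the higher of these lines (left primed above naïve, right below). Each point is a library (circles naïve, squares GKO, triangles primed; 2 per line), and the rule that chose these genes places GKO near primed and away from naïve.

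On the falling side, the iron store Fth1 (ferritin heavy chain) was by far the most abundant of the 12, at 1253 and 1218 TPM in the naïve line, 439.9 and 457 TPM in GKO and 505 and 480.4 TPM in primed ESCs. Pyruvate carboxylase (Pcx), which feeds the citric acid cycle, was at 30.5 and 32.7, 10.4 and 10.6 and 10.5 and 8.41 TPM in the same order, and Klhl13, a ubiquitin ligase adaptor on the X chromosome, at 47.7 and 47.6, 6.24 and 7.93 and 5.96 and 6.24 TPM. In all 3 the GKO libraries lay at or near the primed ones, and for Pcx and Klhl13 the groups overlap. Slc35g1 was at 40.5 and 39.97, 18.2 and 20.5 and 15.6 and 16.00 TPM, and Bcap29, of the endoplasmic reticulum, at 22.2 and 21.6, 11.4 and 10.6 and 8.75 and 8.17 TPM. Magea4, Xlr3b, Xlr4a, Dnajc5g and Ushbp1 were between 5 and 10 TPM in both naïve libraries and under 0.2 TPM in every GKO and primed library. With a pseudocount of 0.1 none of these 5 met the rule. The first 3 of these belong to multicopy families of the X chromosome and are uncertain. Renbp and Ap1s2 completed the 12, at 17.05 and 14.8 TPM and 18.7 and 19.05 TPM in GKO. Of the 12, Fth1 was called lower than primed, and Slc35g1, Bcap29 and Renbp were called higher. Fth1, Pcx, Slc35g1 and Ap1s2 met the rule in all of 14 other settings. Klhl13, Renbp, Magea4, Xlr3b, Xlr4a and Dnajc5g met it in 12, Ushbp1 in 11 and Bcap29 in 9. In either direction, leaving out 1 library changed whether GKO was called different from primed in several of these genes. Without primed 1 it was called for Nynrin (-0.32) and Pcx (0.28), and no longer for Parp11 (-0.22), Sri (-0.17), Mageh1 (-0.25) and Fth1 (-0.10). Without primed 2 it was called for Ap1s2 (0.24) and Ptpn9 (-0.38). Without GKO 1 it was called for Klhl13 (0.33), and no longer for Renbp (0.18), Parp11 (-0.21), Sri (-0.25), Mageh1 (-0.20) and Fth1 (-0.11). Without GKO 2 it was no longer called for Smad3 (-0.24), Erbin (-0.15), Sri (-0.27) and Fth1 (-0.16).

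Several of these genes, beside Smad3, also left the primed level when 1 library was left out, since the interval of GKO minus primed then passed 0.5 in size, and its farther end is given here. Without GKO 1 this held for Zmynd11 (-0.527), Sri (-0.553), Ptpn9 (-0.577) and Klhl13 (0.508). Without GKO 2 it held for Zmynd11 (-0.526), Parp11 (-0.628), Sri (-0.567), Mageh1 (-0.568), Ptpn9 (-0.562), Ushbp1 (0.507), Renbp (0.538) and Bcap29 (0.564). Without primed 1 it held for Bcap29 (0.539), and Ptpn9 failed because primed minus naïve fell to 0.937. Without primed 2 it held for Zmynd11 (-0.544), Parp11 (-0.592), Sri (-0.598), Mageh1 (-0.515), Ptpn9 (-0.606) and Renbp (0.518). Without naïve 1 or naïve 2 it held for Parp11 (-0.509 in both) and Sri (-0.502 in both).

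The median difference was not the same on every chromosome. Between GKO and primed ESCs it was 0.56 on chromosome 6, where 358 of 549 tested genes were called higher and 128 lower. On chromosome 11 it was -0.40, with 204 of 961 called higher and 602 lower. On chromosomes 12 and 5 it was -0.21 and 0.15, and on every other autosome and X it lay between -0.11 and 0.09. Primed minus naïve had medians of -0.39 on chromosome 6 and 0.30 on chromosome 11, where GKO minus naïve had 0.14 and -0.04. Chromosomes 14 and 19 were the reverse case: GKO minus primed was 0.00 and 0.02 there, while primed minus naïve was 0.54 and -0.45 and GKO minus naïve 0.47 and -0.40. Of the 74 genes at the primed level, 13 of 430 tested lay on X and 10 of 393 on chromosome 19, among them Fth1, Pcx and Slc35g1. What these shifts contribute to single genes was not tested, and no DNA copy number was measured here. Of the rising genes named above, Cald1 lies on chromosome 6 and Nynrin on chromosome 14.

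**Figure D3:**
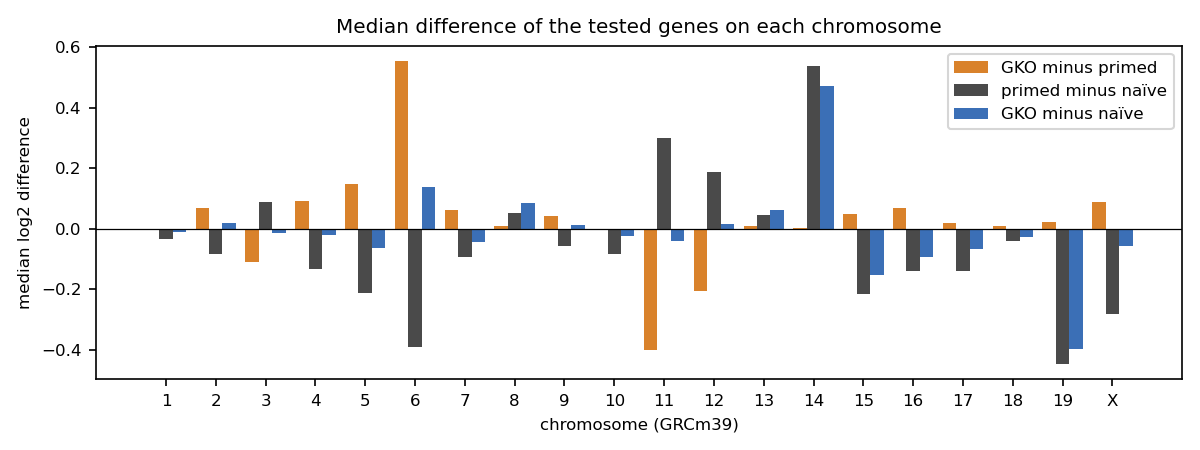
Median log2 difference of the tested genes on each chromosome of GRCm39, for GKO minus primed, primed minus naïve and GKO minus naïve, which share libraries (2 per line); Y is left out, with 4 tested genes. Chromosomes 6 and 11 have the largest medians of GKO minus primed (0.56 and -0.40), while on 14 and 19 the medians of the other contrasts are large and that of GKO minus primed is near 0.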

How the data were processed

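The authors trimmed the reads, aligned them with STAR, estimated expression with RSEM and deposited TPM for each protein-coding gene, in 2 libraries for each of 5 lines. Libraries were assigned to lines by their sample records, and none was left out. The deposited TPM were taken to log2(TPM + 1), a scale that understates differences of genes with low TPM. Genes reaching 1 TPM in 2 or more libraries entered limma 3.58.1 (R 4.3.3), fitted jointly with a mean per line and an intensity trend, and p-values were adjusted by Benjamini-Hochberg within each contrast. Symbols carried by more than 1 gene (26) were not matched to list members. The fit was tested on simulated data, and no result reported here rests on that test. Python 3.11.15, pandas 2.3.3 and matplotlib 3.10.9 did the rest, with gene positions from GENCODE M39.

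The named genes were members of 28 gene lists. Further genes were the 12 largest differences in each direction (called, a mean of at least 5 TPM, no overlap), and 12 genes at the primed level in each direction by primed minus naïve. Others were the 8 largest differences in each direction with naïve within 0.5 of primed, and the 6 genes farthest apart between the primed libraries. A few genes these rules select are not reported here. The promoter motif was chosen after values were seen. The members and lists were chosen with earlier results of these data known. Alternatives were another pseudocount, filters, scalings, the prior variance, the libraries fitted, a replicate block, each library left out, and other limits for the primed level.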

Additional observations from a re-analysis of the deposited data

How the results depend on the processing

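Over the alternatives, 6287 to 11122 genes were called different between GKO and primed ESCs. Fitting only the GKO and primed libraries, without the spread of the other lines, gave 8402 called and 3076 apart by at least 1. Leaving out a library gave 8447 to 9356 called, 3062 to 3179 apart by at least 1 (against 3081), and 54 to 89 at the primed level (against 74). A library left alone in its line is assumed to vary like the other lines. Requiring a mean of 5 TPM left 1534 genes apart and 36 at the primed level, as fewer genes are then tested. The count at the primed level rests on its limits: 10 genes had an interval within 0.25, 488 within 1, and 9 a primed minus naïve difference of at least 2. Which genes reach it also changed, since 30 of the 61 found with a pseudocount of 0.1 and 49 of the 78 found under quantile normalization were among the 74, and 15 of the 74 were found in every one of 14 settings.

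With the replicate number as a block, 9235 genes were called, 3081 apart and 72 at the primed level, but the numbers do not pair libraries between lines (correlation of deviations 0.0780 for GKO 1 with primed 1).

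Of 192 named genes, 158 kept their direction and side of the threshold throughout. A pseudocount of 0.1 took the list medians of germline genes to 4.328, neuroectoderm to -3.675 and mesendoderm to 0.867. A mean of at least 5 TPM took those of germline genes to 4.406 (2 genes left), mesendoderm to 1.967 (3 left), DNA methylation to 0.559, Wnt to -0.171, BMP to -0.326, cytochrome c oxidase to 0.297 and fatty acid oxidation to -0.046 (-0.106 under quantile normalization). The sign turned only for genes near 0, and the cause was not tested. Under quantile normalization Akr1b10 became 0.0796, Dnajc5g -0.00197, Jak2 0.149, Mael 0.126 and Xlr3b -0.0738. Xlr3b was -0.00908 with a pseudocount of 0.1 and -2.2e-05 under median-ratio scaling. Leaving out a library gave -0.0771 to 0.0302 for Akr1b10, -0.00232 to 0.244 for Ap1s2, 0 to 0.0370 for Dnajc5g, -0.205 to 0.140 for Jak2, -0.101 to 0.336 for Junb, -0.168 to 0.0225 for Lgals1, -0.170 to 0.0422 for Mael, 0 to 0.0649 for Magea4, -0.320 to 0.0530 for Nynrin, -0.00703 to 0.284 for Pcx, -0.380 to 0.0752 for Ptpn9, -0.0361 to 0.0392 for Xlr3b and -0.0647 to 0.0248 for Xlr4a. The depth behind TPM is not known, so values under about 1 TPM are imprecise to an unknown extent.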
